A study of Mus musculus with 6 samples.

Results

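The Krüppel-like factors described here are the 10 genes Klf2, Klf3, Klf4, Klf5, Klf6, Klf7, Klf9, Klf10, Klf12 and Klf13, taken by name and without a threshold on any measured value. All probes that the array design assigns to these symbols were taken, 11 of the 55681 probes for genes on the array, with 2 for Klf13 and 1 for each other member. All 11 probes were well above background on all 6 arrays, and all 11 were among the 37008 probes tested.

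Krüppel-like factors are transcription factors that bind CACCC and GC-rich elements in promoters through zinc fingers at the end of the protein. The Sp factors carry nearly the same fingers and compete for many of the same elements, so the outcome at a promoter depends on which members a cell holds. In stratified and glandular epithelia, Klf5 is known from proliferating basal cells and Klf4 from cells that leave the cycle and differentiate, and Klf4 is also one of the factors that reprogram fibroblasts to pluripotency. Several members are induced within minutes of a stimulus, as immediate-early genes are.

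Both populations were sorted from the prostate of 6-day-old FVB/N males that carry the transgene Tg 11.5kb-GFP, so the LSC GFP- cells come from transgenic mice too. LSC stands for lineage-negative, Sca-1-positive and CD49f-positive, the fraction that holds basal and stem cells, and it was divided by GFP driven by the s-SHIP promoter into LSC GFP+ and LSC GFP- cells, with 3 samples of each. No treatment was given. That promoter is also active in smooth muscle cells of blood vessels, which by the study's account carry little or no Sca-1 and CD49f, the markers the LSC gate requires, and sorting was into populations of cells, so a signal is an average over whatever cells a gate let through. The comparison asks how the putative stem cells differ in RNA from the LSC GFP- cells, whose profile the study takes as that of basal cells.

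Each array had between 36657 and 42127 probes well above background and no saturated spot, and the correlation between any 2 arrays was from 0.963 to 0.979. Values below are log2 signals relative to the 75th percentile of the same array. A probe's own brightness enters such a level, so levels are compared between arrays and never between genes. A gene or probe is said to be called where the two-sided moderated test of limma passed the threshold of 0.05 before adjustment, and the p adjusted over all probes tested is printed beside such calls. Of all probes tested, 3.38% were called higher and 4.53% lower in LSC GFP+ cells, and 0.00270%, or 1 probe, passed an adjusted p of 0.05. Of the 2925 calls 42.7% were higher, and with each array scaled to its median in place of the 75th percentile 53.1% of the calls were higher.

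Markers of several cell types moved with the populations. Basal epithelial markers were called higher in LSC GFP+ cells for 6 of 9 genes, among them Krt14, whereas 6 of 7 tested smooth muscle markers, among them Acta2 and Myh11, and 5 of 7 fibroblast markers, among them Col1a1, were called lower. The fibroblast marker Dcn went the other way. The summed level of a list is the sum of its linear signals, each relative to the 75th percentile. In LSC GFP+ against LSC GFP- cells it was 234 to 249 against 174 to 184 for the basal markers. It was 7.04 to 10.6 against 20 to 38.5 for the smooth muscle markers and 18.6 to 24.9 against 20.9 to 59 for the fibroblast markers. The brightest probes weigh most in such a sum. In the basal list the brightest was Trp63, at 6.54 to 6.84 on all 6 arrays, with a difference of 0.11 that was not called. Among the tested fibroblast markers in LSC GFP+ cells the brightest was Dcn. Of the 9 luminal markers, 2 were called higher, among them Hoxb13, with a summed level of 152 to 219 against 161 to 229. Tmprss2 was called lower at -0.54, a call not made with quantile normalization (-0.49), median scaling (-0.47) or no filter, nor without any single array other than LSC GFP+ replicate 3 (-0.40 to -0.57). No endothelial, leukocyte, erythroid or glial and neuronal marker was called in limma out of 6, 8, 2 and 4 tested, but with the replicate block limma called Tubb3 (-1.30) and Sox10 (-0.66) lower and Flt1 (0.84) higher. The summed level of the glial and neuronal list was 8.87, 1.45 and 4.87 in LSC GFP+ against 29.5, 2.61 and 10.5 in LSC GFP- replicates 1, 2 and 3, lower within each number. The leukocyte probe named Itgam read 7.73 to 8.17 on all 6 arrays, and which RNA it reads was not settled. The defining genes Lmod1 and Lyz2 were above background on no array. The part of these cells in the results below was not tested, and in sorted bulk samples fewer cells of a type and less RNA per cell cannot be told apart.

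One member of the 10, Klf4, was called higher in LSC GFP+ cells, or 10% of the genes beside 3.38% of all probes. No member was called lower by limma at the unadjusted threshold, and none by the methods' t-test, the equal-variance test that the study's methods name, run on the same values. No member passed an adjusted p of 0.05. The median log2 difference over the 10 genes, each at its brightest probe, was 0.14, beside -0.004 over all probes tested. Above 0 lay 8 members and below it 2, beside 49.4% of all probes tested above 0. With single arrays left out the members above 0 numbered from 6 to 9. For Klf13 the brightest probe has the opposite sense to the gene, as described below. For 9 of the 10 the 95% interval of the difference held 0, and the half-widths over the members ran from 0.442 to 0.961, which limits what 3 arrays a population could show.

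**Figure D1:**
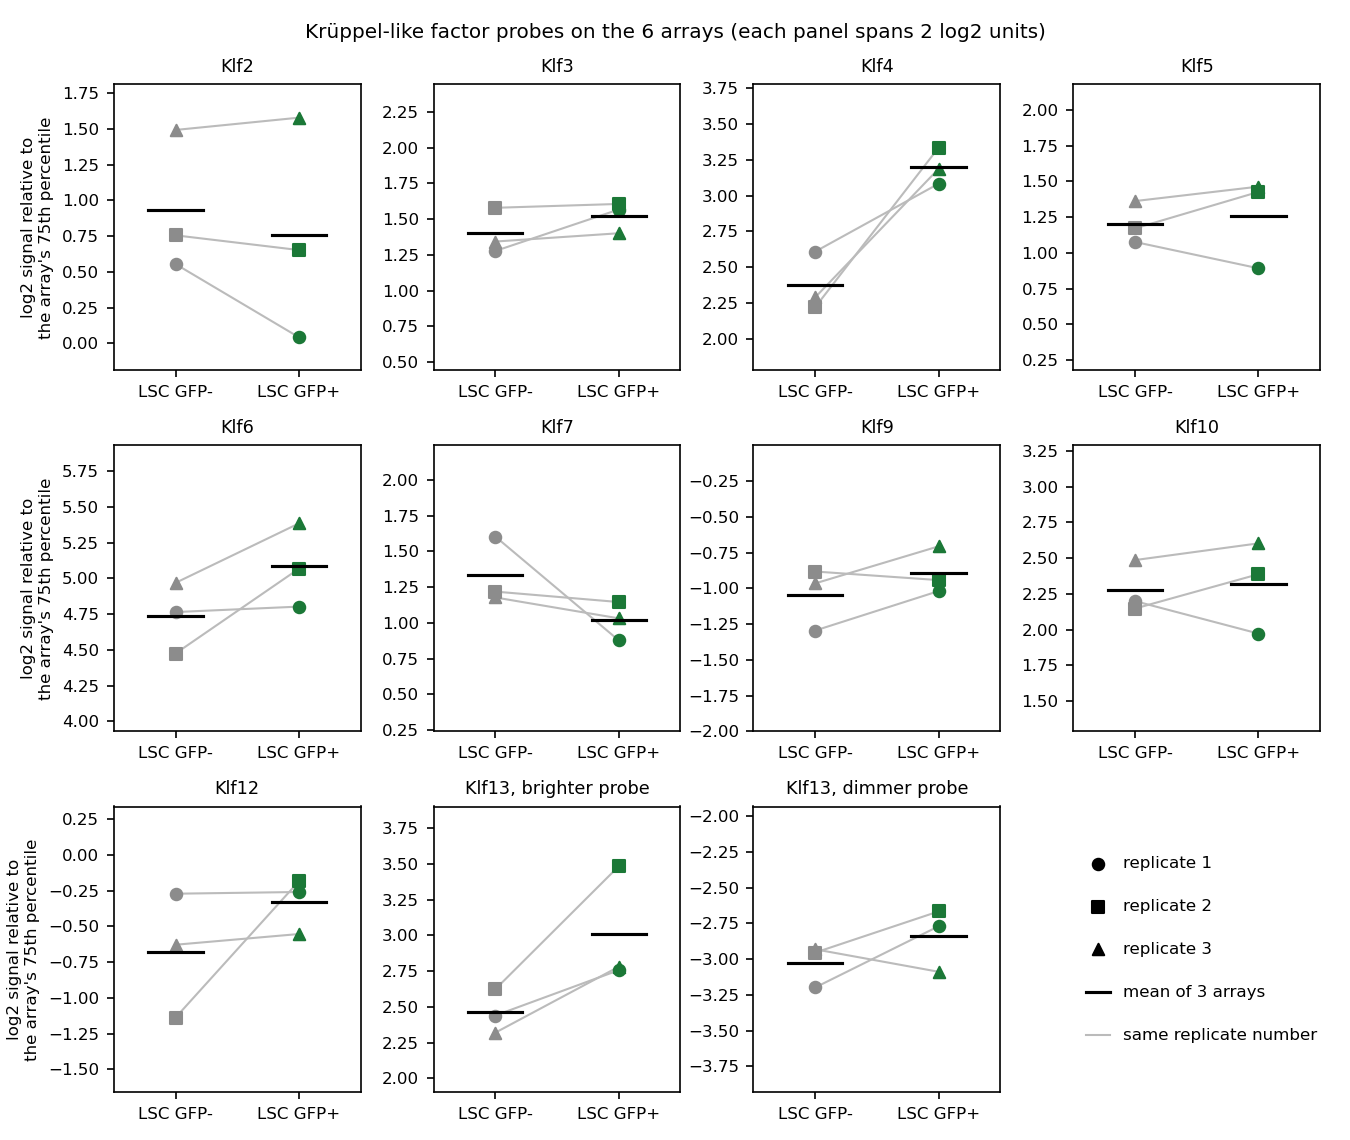
Log2 signal, relative to the 75th percentile of the array, of the 11 Krüppel-like factor probes in LSC GFP- (grey) and LSC GFP+ (green) cells, with 1 symbol per replicate number, grey lines between arrays of the same number and black bars for the means of 3 arrays. The 3 lines of Klf4 all climb and its populations do not overlap, while the lines of Klf2 stay apart from each other and the populations overlap.

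Klf4 restrains proliferation and promotes barrier formation in surface epithelia. Its log2 signal was 3.08, 3.33 and 3.19 in LSC GFP+ replicates 1, 2 and 3 and 2.61, 2.22 and 2.29 in LSC GFP- replicates 1, 2 and 3. All 3 LSC GFP+ arrays lay above all 3 LSC GFP- arrays, which 6.61% of all probes tested did in this direction. The means were 3.20 ± 0.127 and 2.37 ± 0.208 (SD, n = 3 each), and Klf4 rose by a log2 difference of 0.83 (SE 0.201, 95% interval 0.366 to 1.294), or 1.78-fold, with adjusted p = 0.226 in limma. The difference was positive within each replicate number, at 0.474, 1.117 and 0.899. It stayed between 0.754 and 0.948 when any single array was left out, and the call was made each time. The study had named Klf4 from these same samples, so its call is not independent evidence. The probe lies at chr4:55540167-55540226 of mm9, on the minus strand.

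The promoter window of Klf4 is shown because it belongs to the member that differed between the populations, and that of Klf2, described further on, because that member differed most among the replicates. Each line gives the 250 bases before the annotated start, 5′ to 3′ on the gene's strand, from RefSeq on GRCm38.p6. Capitals mark 3 motifs on either strand, so that their reverse complements are in capitals too and neighbouring matches can run together. They are CACCC, the element that Krüppel-like factors bind, GGGCGG, the GC box of Sp factors, and TGACG, the core of the cyclic AMP response element.
Klf4, chr4:55532476-55532725, minus strand: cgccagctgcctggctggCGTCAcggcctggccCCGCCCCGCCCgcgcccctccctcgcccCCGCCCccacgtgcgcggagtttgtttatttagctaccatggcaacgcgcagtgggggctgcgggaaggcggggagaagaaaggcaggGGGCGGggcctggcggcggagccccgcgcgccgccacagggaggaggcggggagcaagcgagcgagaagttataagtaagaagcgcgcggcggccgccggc
Klf2, chr8:72318812-72319061, plus strand: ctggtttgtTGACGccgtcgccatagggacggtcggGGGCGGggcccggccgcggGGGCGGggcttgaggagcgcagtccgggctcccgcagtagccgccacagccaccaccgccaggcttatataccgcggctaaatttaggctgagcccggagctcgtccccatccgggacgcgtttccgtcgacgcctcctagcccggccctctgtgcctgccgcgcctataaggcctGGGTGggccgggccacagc

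These upstream bases of Klf4 held 4 matches to GGGCGG, 1 to TGACG and 0 to CACCC, and those of Klf2 held 2, 1 and 1. Windows of 300 bases, which add 50 bases after the start, were at hand for 8 of the 10 members, all but Klf5 and Klf10. CACCC was present in 6 of these 8 beside 57.5% of 32851 mouse promoter windows of the same length, GGGCGG in 6 beside 35.7% and TGACG in 6 beside 20.8%. The motif TATTTATA, a core of MEF2 sites, was in 0 of 8 beside 1.7%. The windows were rich in G and C, with 74.3% for Klf4 and 69.3% for Klf2, and a match in such a window is a description and not a site of binding.

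Klf13, which is known from T lymphocytes as an activator of Ccl5 and which binds the corepressor Sin3a, had 2 probes that gave different sizes. The brighter one read 2.76, 3.48 and 2.78 in LSC GFP+ replicates 1, 2 and 3 and 2.44, 2.62 and 2.32 in LSC GFP-. The populations did not overlap and the LSC GFP+ arrays were the higher ones, with replicate 2 of LSC GFP+ far above the other two. The log2 difference was 0.55 (SE 0.251, 95% interval -0.034 to 1.127), with adjusted p = 0.676 in limma, so it was not called. It was called with the replicate number as a block, where the difference is again 0.55, and without LSC GFP+ replicate 1, where it was 0.67. Without LSC GFP+ replicate 2 the difference was 0.31 and was not called.

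The dimmer Klf13 probe read -2.77, -2.67 and -3.09 in LSC GFP+ and -3.20, -2.95 and -2.93 in LSC GFP- replicates 1, 2 and 3. Its populations overlapped, and the log2 difference was 0.19 (95% interval -0.288 to 0.661), which was not called. In mm9 the brighter probe lies at chr7:71032482-71032541 on the plus strand and the dimmer one at chr7:71082854-71082913 on the minus strand, 50.3 kb apart. RefSeq places Klf13 on the minus strand of GRCm38.p6, so the brighter probe has the opposite sense to the gene in the design's coordinates, and which RNA it reads was not settled here. The values of the brighter probe are therefore those of a probe named Klf13.

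The dimmer Klf13 probe and the Klf5 probe lie in the part that codes for the zinc fingers, which the family shares, and they are shown to let their likeness be seen. Capitals mark bases that are identical where the 2 probes overlap.
Klf5 probe: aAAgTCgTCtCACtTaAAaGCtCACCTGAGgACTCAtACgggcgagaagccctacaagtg
Klf13 dimmer probe: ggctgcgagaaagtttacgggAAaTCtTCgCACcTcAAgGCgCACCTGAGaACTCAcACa

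Of the 40 overlapping bases 29 were identical, and no other pair among the 11 probes reached an identity of 70% over 20 or more overlapping bases. Each probe is 60 bases long, so a cross-signal between family members is possible for these probes, and its size was not tested.

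Klf5, the family member of proliferating basal cells, was measured by the first of these probes, which spans chr14:99702656-99712388 of mm9, more than its own length, as a probe across a splice junction does. It read 0.89, 1.43 and 1.46 in LSC GFP+ replicates 1, 2 and 3 and 1.08, 1.17 and 1.36 in LSC GFP-. The populations overlapped, and LSC GFP+ replicate 1 was the lowest of the 6 arrays. The log2 difference was 0.06 (SE 0.226, 95% interval -0.465 to 0.580), with adjusted p = 0.996 in limma. Its sign turned without replicates 2 (-0.03) or 3 (-0.04) of LSC GFP+ or replicate 1 of LSC GFP- (-0.01).

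Klf6, an early response gene and a tumour suppressor altered in human prostate cancer, read 4.80, 5.07 and 5.38 in LSC GFP+ replicates 1, 2 and 3 and 4.76, 4.47 and 4.97 in LSC GFP-. Each LSC GFP+ array was above the LSC GFP- array of its number, but the populations overlapped. The log2 difference was 0.35 (95% interval -0.194 to 0.892, adjusted p = 0.882), and it was 0.20 without LSC GFP+ replicate 3 and 0.22 without LSC GFP- replicate 2. Klf10, which TGF-beta induces, read 1.97, 2.39 and 2.60 in LSC GFP+ and 2.20, 2.15 and 2.49 in LSC GFP-. Its populations overlapped from end to end, with a difference of 0.04 (95% interval -0.491 to 0.577) that was -0.10 without LSC GFP+ replicate 3 and -0.02 without LSC GFP- replicate 2.

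Klf2, known for keeping endothelial cells and T lymphocytes quiescent, read 0.04, 0.65 and 1.58 in LSC GFP+ replicates 1, 2 and 3 and 0.56, 0.76 and 1.49 in LSC GFP-. The arrays numbered 3 were the highest and those numbered 1 the lowest in both populations. The log2 difference of -0.18 had the widest interval among the members, -1.138 to 0.785, and it was 0.18 without LSC GFP+ replicate 1 and 0.10 without LSC GFP- replicate 3. Of the endothelial markers Cdh5, Tie1, Emcn and Erg did not pass the filter, and the list summed to 6.21 to 7.25 in LSC GFP+ and 6.38 to 7.71 in LSC GFP- cells. Kdr alone, at 2.44 to 2.64 on all 6 arrays, made up most of each sum. In LSC GFP- replicates 1, 2 and 3 Pecam1 read -3.30, -3.35 and -1.07 and Cldn5 -3.07, -2.98 and -1.75. In LSC GFP+ replicate 3 they read -2.86 and -3.63, and Flt1 was lowest in LSC GFP- replicate 3, at -4.47. The part of endothelial cells in the Klf2 values was not tested.

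The repressors Klf3 and Klf12, which recruit the corepressor CtBP, and the broadly expressed Klf7 were not called. Klf3 read 1.57, 1.61 and 1.40 in LSC GFP+ replicates 1, 2 and 3 and 1.28, 1.58 and 1.34 in LSC GFP-, with overlap and a difference of 0.13 (95% interval -0.317 to 0.567) that ranged from 0.064 to 0.215 when single arrays were left out, lowest without LSC GFP- replicate 1 and highest without LSC GFP- replicate 2. Klf12 read -0.26, -0.18 and -0.55 in LSC GFP+ and -0.27, -1.14 and -0.63 in LSC GFP-. Its log2 difference of 0.35 (95% interval -0.260 to 0.954) lay mostly in replicate 2, where the populations differed by 0.954, while they differed by 0.011 and 0.075 in replicates 1 and 3. It was 0.12 without LSC GFP- replicate 2 and 0.55 without LSC GFP- replicate 1.

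Klf7 was the only one of the 10 members whose LSC GFP+ arrays all lay below its LSC GFP- arrays, which 5.65% of all probes tested did. It read 0.88, 1.15 and 1.03 in LSC GFP+ replicates 1, 2 and 3 and 1.60, 1.22 and 1.18 in LSC GFP-. LSC GFP- replicate 1 stood highest, and the difference of -0.32 (95% interval -0.793 to 0.162) was not called and was -0.18 without that array. Klf9, a gene that glucocorticoids and thyroid hormone induce, read -1.02, -0.94 and -0.71 in LSC GFP+ and -1.29, -0.88 and -0.96 in LSC GFP-. The populations overlapped, with a difference of 0.16 (95% interval -0.320 to 0.636) that was 0.07 without LSC GFP+ replicate 3, 0.03 without LSC GFP- replicate 1 and 0.24 without LSC GFP- replicate 2.

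The remaining probes lie, in mm9, at chr13:5869371-5869430 for Klf6, chr15:38224255-38224314 for Klf10, chr8:74845137-74845196 for Klf2, chr5:65221309-65221368 for Klf3, chr14:100270699-100270758 for Klf12, chr1:64082265-64082324 for Klf7 and chr19:23240410-23240469 for Klf9. Exon and UTR annotation of that build was not used here.

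For each member the spread among replicate numbers was set beside the difference between the populations. The mean of the LSC GFP+ and LSC GFP- arrays of each number was taken, and the range of these 3 pair means was set against the difference between the populations. For Klf4 the range was 0.108 beside a difference of 0.830, and 95.9% of all probes tested had a range as large. For Klf2 it was the reverse, with pair means of 0.299, 0.704 and 1.536, a range of 1.237 beside a difference of 0.176, and 5.42% of probes had a range as large. In 7 of the 10 members the range was larger than the difference between populations. A range of 3 pair means tends to exceed a difference of 2 means even where replicate numbers have no effect. The count therefore does not show that variation followed the replicate number. Over all probes tested the median range was 0.483 and the median size of the difference 0.183.

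**Figure D2:**
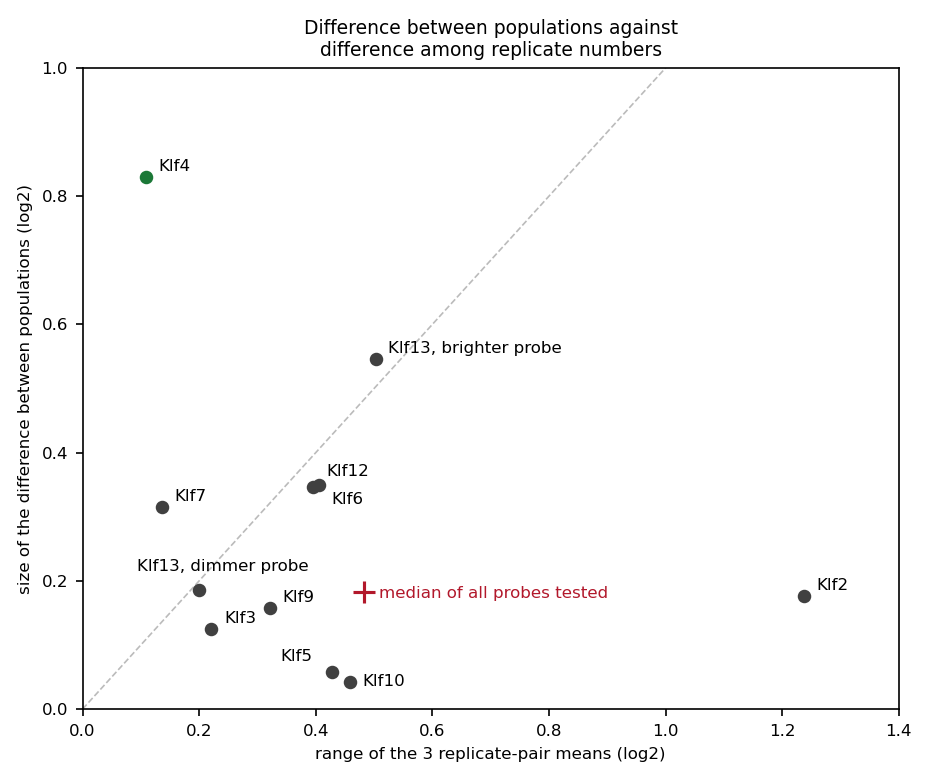
Size of the log2 difference between LSC GFP+ and LSC GFP- cells against the range of the 3 replicate-pair means (log2) for each of the 11 probes, with the median of all probes tested as a red cross and equal values as a dashed line. Klf4 lies far above the line at 0.108 and 0.830, Klf2 far below it at 1.237 and 0.176, and the others nearer to it.

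The reference genes Gapdh and Actb were also highest on the arrays numbered 3. Gapdh read 6.80, 6.90 and 7.38 in LSC GFP+ replicates 1, 2 and 3 and 6.89, 6.65 and 7.41 in LSC GFP-. Actb read 4.62, 4.97 and 5.47 in LSC GFP+ and 4.77, 4.66 and 5.52 in LSC GFP-. Neither was called, with log2 differences of 0.04 ± 0.267 for Gapdh and 0.04 ± 0.313 for Actb (SE). The erythroid gene Hba-a1 was highest there as well, at 2.06 in LSC GFP+ and 1.52 in LSC GFP-. The part of such shared variation in the Klf2 pattern was not tested.

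Of the 16 other Klf and Sp genes listed, 13 passed the filter, and Klf14, Klf17 and Sp9 did not. Sp5 and Sp8, which act downstream of Wnt signals in the embryo and in limb buds, were called higher, beside 3.38% of all probes. By limma at the unadjusted threshold or by the methods' t-test 0 of 13 were called lower. Sp5 read -0.91, -1.03 and -1.08 in LSC GFP+ replicates 1, 2 and 3 and -2.12, -1.81 and -2.04 in LSC GFP-, without overlap. Sp5 rose by a log2 difference of 0.98 (SE 0.190, adjusted p = 0.138). Sp8 read 2.56, 3.08 and 2.72 in LSC GFP+ and 1.77, 1.81 and 1.94 in LSC GFP-, again without overlap, and rose by 0.94 (SE 0.208, adjusted p = 0.184) at its brighter probe. Its dimmer probe gave 0.26 and was not called.

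Sp3, which is expressed in most cells, was higher on all 3 LSC GFP+ arrays without overlap, with a difference of 0.43 (adjusted p = 0.635), and it was not called here but was called by the methods' t-test, with the replicate block, normexp, quantile or median scaling, an intensity trend, and the filter that needs all 6 arrays above background. The differences of the other genes that were not called ran from -0.17 for Sp6, a factor of skin and teeth, through -0.004 for Klf8, 0.05 for Sp4, 0.11 for Klf16, 0.13 for Klf11, 0.16 for Sp1, 0.18 for Sp2, 0.19 for Klf15 and 0.36 for the erythroid factor Klf1 to 0.40 for the bone factor Sp7. Without LSC GFP+ replicate 1 the Sp7 difference was 0.77 and was called. The signs of Klf8, Klf16, Sp4 and Sp6 turned when some single arrays were left out, those of Klf8 and Sp4 also with quantile normalization, and that of Klf8 also with median scaling. The median of the 13 was 0.18.

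**Figure D3:**
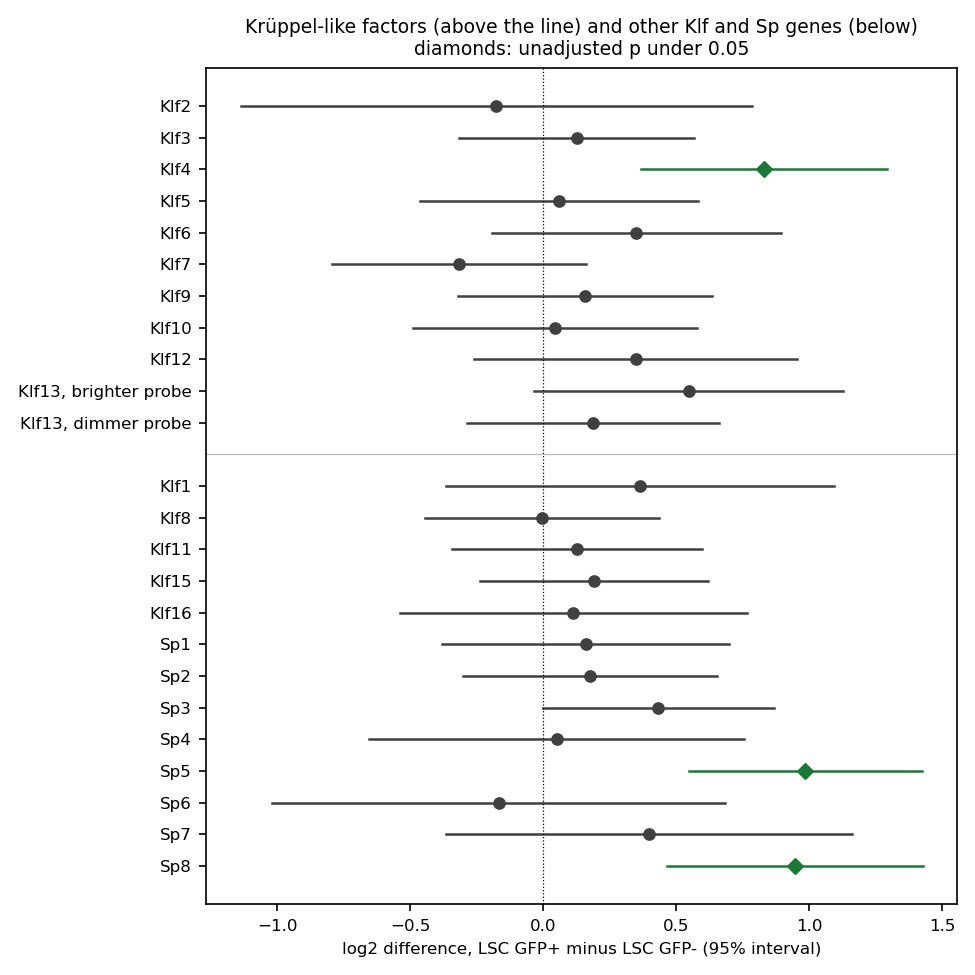
Log2 differences, LSC GFP+ minus LSC GFP-, with 95% intervals from limma for the 11 Krüppel-like factor probes and the 13 other Klf and Sp genes tested, with green diamonds for an unadjusted p under 0.05. The intervals of Klf4, Sp5 and Sp8 exclude 0 and those of the other genes include it.

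Factors that act on Klf genes or with their products gave 1 call in each of 2 lists, beside 3.38% of all probes called higher. Of 11 cofactors and ubiquitin ligases, 1 was called higher and 0 lower, with a median of 0.09. This was Fbxw7, a ubiquitin ligase subunit that targets Klf2 and Klf5, at 1.54, 1.80 and 1.54 in LSC GFP+ and 1.09, 1.18 and 0.66 in LSC GFP- replicates 1, 2 and 3. Fbxw7 rose by 0.65 (SE 0.218, adjusted p = 0.435), and its other probe, also called, by 0.53. The call was not made without LSC GFP+ replicate 2, at 0.56, or without LSC GFP- replicate 3, at 0.49.

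Among 13 factors known to act upstream of Klf genes 12 were tested, Thrb being above background on no array, and their median was 0.02. Notch1, a receptor that represses Klf4 in the intestine, was called higher, and 0 were lower. Notch1 read 2.13, 2.64 and 1.97 in LSC GFP+ replicates 1, 2 and 3 and 1.46, 1.90 and 1.43 in LSC GFP-, without overlap, and rose by 0.65 (SE 0.251, adjusted p = 0.547), with 0.69 at its other probe, which was called too. The call was lost without replicate 2 of LSC GFP+ (0.45) or replicates 1 (0.58) or 3 (0.56) of LSC GFP-. The methods' t-test did not call Notch1 and called Srf, at 0.34, in its place. The brightest probes named Mef2a and Elk1 here, Crebbp among the cofactors and Nanog among the pluripotency factors lay between 6.81 and 8.96 on all 6 arrays, which RNA they read was not settled, and they enter the medians of these lists.

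Of 9 pluripotency factors 7 were tested, and 2 were called higher, beside 3.38% of all probes, and 0 lower, with a median of 0.03. Both are reprogramming factors beside Klf4, and the study itself named them from these samples, so the list is not independent evidence of a direction. Sox2 read 0.364, 0.910 and 0.999 in LSC GFP+ replicates 1, 2 and 3 and 0.14, -0.54 and -0.23 in LSC GFP-, and rose by 0.97 (SE 0.264, adjusted p = 0.298). Myc read 1.85, 2.04 and 1.72 in LSC GFP+ and 1.05, 0.83 and 0.99 in LSC GFP-, and rose by 0.92 (SE 0.191, adjusted p = 0.163). Neither pair of populations overlapped. Pou5f1, the other reprogramming factor, had a difference of 0.03 and was not called.

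Immediate-early genes, which share rapid induction with Klf2, Klf4, Klf6 and Klf10, were called higher for 10 of 15 genes other than members and lower for 0. Of all probes tested 3.38% were called higher. The list was written with earlier results of these data known. Of the 15, 13 had LSC GFP+ arrays that all lay above the LSC GFP- arrays, beside 6.61% of all probes tested. The median was 0.66 within a range from 0.437 to 1.336. The nuclear receptor Nr4a1 read 4.83, 4.96 and 4.74 in LSC GFP+ replicates 1, 2 and 3 and 4.02, 3.23 and 3.28 in LSC GFP-, and rose by 1.34 (SE 0.255, adjusted p = 0.135). The others called were Ier3 at 1.16, Egr2 at 1.001, Atf3 at 0.92, Cyr61 at 0.78, Fosb at 0.69, Egr1 at 0.66, Btg2 at 0.61, Junb at 0.56 and Jun at 0.56. The methods' t-test did not call Atf3 or Btg2, and normexp did not call Junb (0.29). Without LSC GFP- replicate 2 there were 4 calls and without LSC GFP+ replicate 3 there were 5.

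The summed level of the immediate-early list was 350, 380 and 456 in LSC GFP+ replicates 1, 2 and 3 and 290, 190 and 256 in LSC GFP-. LSC GFP- replicate 2 was the lowest for this sum, for Klf4 and for Klf6. Klf4 and Klf6 (0.35, not called) stood in the direction of the immediate-early list, while Klf2 and Klf10, induced in the same way, had differences of -0.18 and 0.04. Without LSC GFP- replicate 2 the Klf4 difference was 0.75 and was still called. The part of immediate-early induction in the Klf4 difference was not tested. No gene of the glucocorticoid response list was called in limma or by the methods' t-test at the same threshold, out of 6 that include Fkbp5 and Tsc22d3, and the median was -0.13. Sgk1 was called lower with the replicate block (-0.47), with quantile normalization (-0.53) and without LSC GFP+ replicate 3 (-0.64).

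Genes known as targets of Krüppel-like factors moved in both directions. Of 22 genes 21 were tested, and Alpi, an intestinal target of Klf4, was above background on no array. The median was 0.21, and 4 were called higher and 3 lower, beside 3.38% and 4.53% of all probes. No expected direction was set for the listed genes, so these counts and the median do not measure Krüppel-like factor activity. The cyclin gene Ccnd1 rose by 0.78 (SE 0.197), from 3.33, 3.13 and 3.57 in LSC GFP- to 4.09, 4.19 and 4.09 in LSC GFP+ replicates 1, 2 and 3. The growth factor gene Pdgfa rose by 0.92 (SE 0.180), from 1.73, 1.71 and 1.82 to 2.77, 2.69 and 2.58. The cell cycle inhibitor Cdkn1c rose by 0.99 (SE 0.319), from 0.70, -0.08 and 1.05 to 1.63, 1.21 and 1.78. These 3 genes had populations that did not overlap, and the methods' t-test did not call Cdkn1c.

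Thbd, which codes for thrombomodulin and is a target of Klf2 and Klf4 in endothelium, read -0.89, -1.67 and -1.71 in LSC GFP+ and -1.86, -3.58 and -2.31 in LSC GFP- replicates 1, 2 and 3. Thbd rose by 1.16 (SE 0.449) without overlap, and the call was lost with the methods' t-test and without replicates 1 (0.89) or 2 (1.28) of LSC GFP+ or replicate 2 of LSC GFP- (0.66). The smooth muscle gene Tagln, also in the smooth muscle list, fell by 0.86 (SE 0.260), from 3.00, 2.35 and 2.75 to 2.13, 1.47 and 1.93. Plau, the urokinase gene, fell by 0.89 (SE 0.333) with overlap, and was not called by the methods' t-test, with median scaling (-0.82), or without replicates 1 (-0.57) or 2 (-0.91) of LSC GFP+ or replicates 2 (-0.83) or 3 (-0.75) of LSC GFP-. S1pr1, a Klf2 target in lymphocytes, was above background on 1 of 3 LSC GFP+ arrays and all 3 LSC GFP- arrays, and fell by 1.05 (SE 0.416). Leaving out replicates 1 (-0.70) or 2 (-1.07) of LSC GFP+ or replicates 1 (-0.89) or 3 (-0.86) of LSC GFP- ended that call, as did quantile normalization (-0.96), median scaling (-0.98), no filter, an intensity trend and the methods' t-test.

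Adjusted p values of the 7 target genes ran from 0.139 to 0.563. The cell cycle inhibitor Cdkn1a, a direct target of Klf4 in epithelial cells, had a difference of 0.21, and Ccl5, the target of Klf13, one of 0.10, and neither was called.

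**Figure D4:**
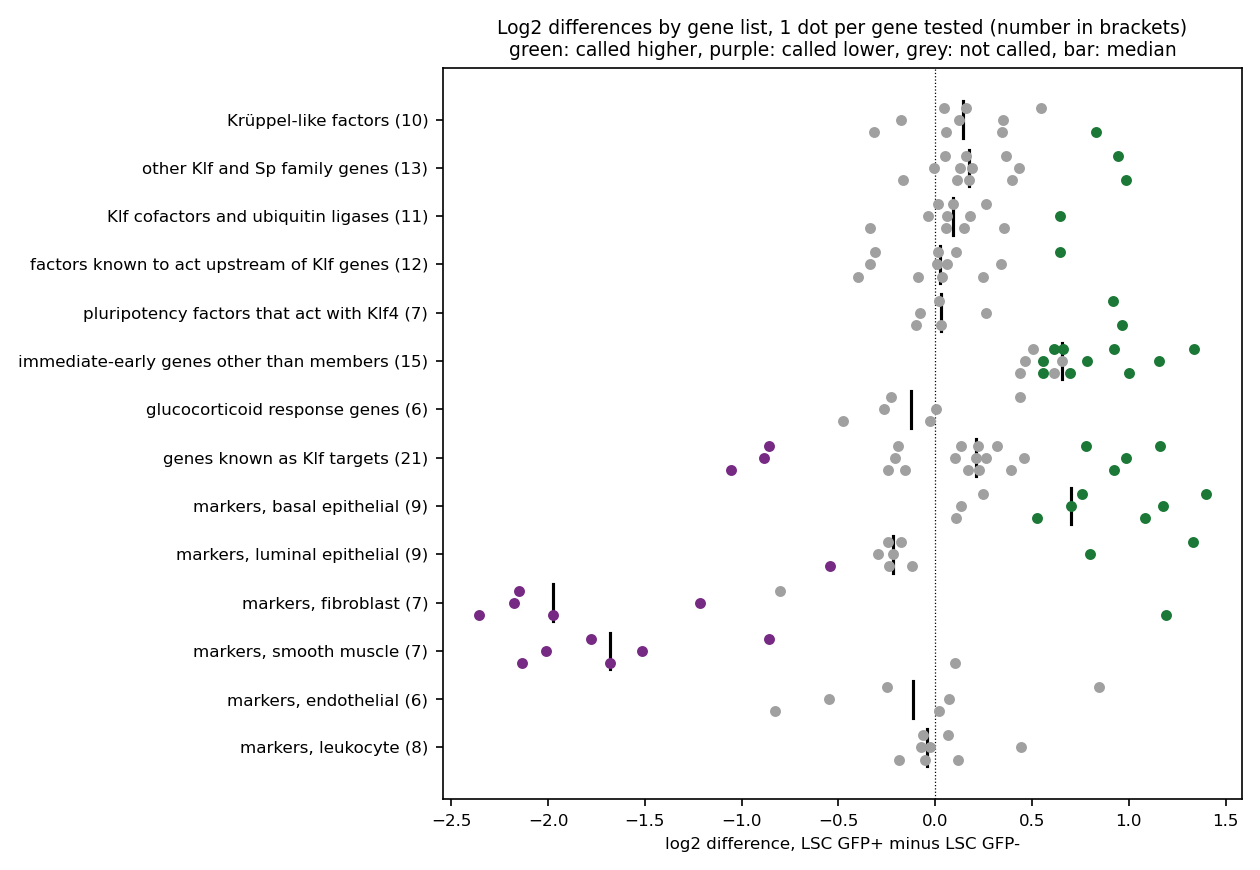
Log2 differences, LSC GFP+ minus LSC GFP-, of the tested genes of each list, 1 dot per gene, with green for called higher, purple for called lower, grey for not called and a black bar for the median. The Krüppel-like factors lie around a median of 0.14 with 1 gene called, the immediate-early genes all lie above 0, and the fibroblast and smooth muscle markers lie mostly below it.

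The genes whose profile over the 6 arrays was most like that of Klf4 and of Klf5 were found among 23791 genes above background on all 6 arrays, by the root mean square difference of log2 values centred over the arrays. For Klf4 these were Fbln1, a matrix glycoprotein gene, at 0.053 log2 units, Megf9, which codes for a membrane protein with EGF-like domains, at 0.073, and a probe without a gene symbol at chr14:118374824-118374883 at 0.091. Fbln1 read 2.53, 2.72 and 2.67 in LSC GFP+ replicates 1, 2 and 3 and 2.01, 1.61 and 1.60 in LSC GFP-, a log2 difference of 0.90. Megf9 had a difference of 0.91. For Klf5 the nearest genes were Paip1, a regulator of translation, at 0.018, Scd2, a fatty acid desaturase, at 0.021 and the cohesin gene Rad21 at 0.027, with differences of 0.03, 0.04 and 0.07. A likeness over 6 arrays is a description, since the genes share the same populations and replicate numbers.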

How the data were processed

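RNA from 3 independent samples of each sorted population was amplified with the Ovation Pico WTA kit, labelled with Cy3 and hybridised to SurePrint G3 Mouse arrays. The authors deposited scanner output in which, per the file headers, the processed signal is an intensity on a linear scale with the background subtracted, from Feature Extraction 11.0.1.1 (the submitters' processing notes name 10.7.3.1), not normalized between arrays. The amplification can change the relation between RNA amount and signal, and the number of arrays limits the precision. All 6 arrays came from the same slide and scan run, so slide and scan could not be compared.

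Intensities were turned into log2 values relative to the array's own 75th percentile, outlier spots (123 to 154 per array) were left out and spots of a probe averaged. A probe entered the fit if either population had it well above background throughout, and was tested with lmFit and eBayes of limma 3.58.1 (R 4.3.3), unpaired and two-sided. The study's methods name Student's test at a threshold of 0.05 without saying whether samples were paired or p values adjusted, and an unadjusted threshold of 0.05 was used for calls here. Adjusted p values are Benjamini-Hochberg over all 37008 probes tested. A gene was read at its brightest probe. An exact permutation test of 3 against 3 arrays cannot go below 0.1 and was not used.

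Replicate numbers come from the sample titles. Between arrays of the same number the deviations from the population means had correlations of 0.433, 0.277 and 0.668 for replicates 1, 2 and 3. Between arrays of unlike number the correlations ran from -0.547 to 0.223, the highest for LSC GFP+ replicate 1 with LSC GFP- replicate 2. Deviations from a mean of 3 arrays sum to 0, so these correlations are tied to each other. A fit with the replicate block was therefore run beside the unpaired one. Normexp with an offset of 50, quantile and median scaling, the series table of the same signals rounded, other filters, an intensity trend, the methods' t-test with equal variances, the mean over probes and leaving out each array were the other alternatives.

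The named genes were all 10 members, every listed gene called at its brightest probe, the Klf and Sp genes that passed the filter, Gapdh and Actb, and the 3 profiles nearest to Klf4 and Klf5. A few others, namely Cdkn1a, Ccl5, Pou5f1, Hba-a1, Fkbp5, Tsc22d3, Sgk1, Trp63, Tubb3, Sox10, Flt1, Kdr, Pecam1, Cldn5, Itgam, Srf, Mef2a, Elk1, Crebbp and Nanog, were named after their values were seen. Some marker genes are not reported here by name. Members and lists were chosen with earlier results of these data known. On simulated data for this comparison, over 37008 probes with 200 changed, 89% of changes of 1 log2 unit and 100% of changes of 2 were called. Of the unchanged probes 4.91% were called. All member differences were smaller than 1 log2 unit, and the recovery of changes of such sizes was not simulated. With the replicate block the shares were again 89% and 100%, whereas in the measured data the block raised the calls from 2925 to 5479.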

Additional observations from a re-analysis of the deposited data

How the results depend on the processing

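Klf4 was called higher in all 16 alternatives and no member was called lower in any. The count of members called higher was 2 in place of 1, Klf13 being the second, with normexp background correction (log2 difference 0.55), with an intensity trend (0.55) and with the replicate block (0.55), and it ranged from 1 to 2 when single arrays were left out. Klf13 was read in these settings at its brighter probe, which has the opposite sense to the gene. Its dimmer probe gave 0.19 in the main fit and the mean over its probes 0.37, and neither was called. With the replicate block the probes called among all tested rose from 2925 to 5479, and none passed an adjusted p of 0.05 (limma). Of 160 member differences recomputed, 148 kept their direction and side of the threshold, 4 passed it newly (all Klf13) and 8 changed sign, all of them within members whose intervals held 0. These were Klf10 with quantile normalization (-0.003) and, with single arrays left out, values of Klf2, Klf5 and Klf10, whose differences then ranged from -0.587 to 0.181, from -0.044 to 0.242 and from -0.098 to 0.217. The cause of these changes was not tested. The other filters, the methods' t-test, the intensity trend and the replicate block alter only the test and leave the difference itself as it was. Direction could therefore not change in those settings. For members with a single probe, Klf4 among them, the mean over probes repeats the main fit. Among the listed genes, the methods' t-test called 2 of the target genes higher in place of 4 and 1 lower in place of 3, and median scaling called 1 lower. Of the cofactors the t-test called 3 higher and the replicate block 2, in place of 1, and none was called without LSC GFP+ replicate 2 or without LSC GFP- replicate 3.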
